A study of Mus musculus with 2 samples.

Results

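Complement genes were followed in immune cells from the brain and spinal cord compartment (CNS) of mice with EAE, experimental autoimmune encephalomyelitis, in which T cells against myelin cause disease that models multiple sclerosis. The 9 genes were taken by symbol from the 32285 genes of the count tables: the 3 chains of C1q (C1qa, C1qb and C1qc), the components C3, C4b, Cfb and Cfp, and the anaphylatoxin receptors C3ar1 and C5ar1. Stat4fl/flCD11cCre C57BL/6 mice carry floxed alleles of Stat4, which encodes a transcription factor of IL-12 and IL-23 signalling, and a Cre recombinase under the CD11c promoter, and WT C57BL/6 mice served as the comparison. Both groups were immunised with MOG peptide in CFA and given PTX, and cells were taken on day 15. The mice of each genotype were pooled, stained, sorted for surface MHC class II and CD11c, and run as 1 droplet library, so no difference below has a replicate check and no p-value is given. The labels give neither their age nor how many mice were pooled.

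Complement is a cascade of plasma and locally made proteins. C1q, built of C1qa, C1qb and C1qc chains, binds antibody or debris and starts the classical pathway, which cleaves C4 and C2 and then C3. In the alternative pathway factor B (Cfb) joins C3b to form the C3 convertase, and properdin (Cfp) stabilises it. The fragments C3a and C5a act on C3aR (C3ar1) and C5aR1 (C5ar1) of myeloid cells. In the brain, microglia are the known main source of C1q, and C3 and C4 take part in the removal of synapses.

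The Stat4fl/flCD11cCre library held 120221740 gene UMIs (counted RNA molecules) in 12534 barcodes and the WT library 122975017 in 13820, of which 12305 and 13298 barcodes were kept, and 43 barcode sequences occur in both libraries. Cells were assigned to a gate when they showed 3 or more markers of 1 cell type and at least 2 times as many as of any other. Gates took 9561 cells (77.7%) in Stat4fl/flCD11cCre and 9129 (68.6%) in WT. Another 2389 (19.4%) and 3607 (27.1%) matched more than 1 list and were left out, which also served to remove doublets. The microglia gate held 5062 and 3118 cells, the inflammatory macrophage gate 1300 and 1760, the classical monocyte gate 454 and 632, and the cDC2 gate 142 and 138. T cell and neutrophil gates were present although the sort was for MHC class II and CD11c. The summed level of the 9 microglia markers in the microglia gate was 7824 CPM (UMIs per 1000000 gene UMIs of the gate) in Stat4fl/flCD11cCre and 4865 in WT, and no marker of the microglia, macrophage, monocyte or cDC2 list was at 0 in its own gate. As these markers defined the gates, their presence there follows largely from the gating and is no separate check. The targeted gene Stat4 had 84.4 CPM (70.2 to 100.6) in the Stat4fl/flCD11cCre cDC2 gate and 99.7 (81.1 to 121) in WT, but the labels do not name the deleted exons, so 3' reads do not check the deletion. Ranges in parentheses are 95% intervals and cover counting error only.

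C1qb, C1qc and C1qa lie side by side on the minus strand of chromosome 4, within 18675 bases (chr4:136880129-136898803, GRCm38). C4b (chr17:34728380-34743882), Cfb (chr17:34856374-34862518) and C3 (chr17:57203970-57228136) are on chromosome 17. The 250 bases before the start of C1qb and of C3 are shown because these genes had different main sources below, microglia for C1qb and macrophages for C3. Both come from RefSeq (GRCm38.p6), run 5′ to 3′ on the minus strand, and have matches to GAGGAA, the core letters read by the myeloid factor PU.1, in capitals.
C1qb, chr4:136886201-136886450: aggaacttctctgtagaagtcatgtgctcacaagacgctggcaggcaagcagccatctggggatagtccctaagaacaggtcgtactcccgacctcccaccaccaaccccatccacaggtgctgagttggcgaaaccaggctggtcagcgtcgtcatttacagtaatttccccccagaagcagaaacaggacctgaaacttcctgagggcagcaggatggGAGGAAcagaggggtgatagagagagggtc
C3, chr17:57228137-57228386: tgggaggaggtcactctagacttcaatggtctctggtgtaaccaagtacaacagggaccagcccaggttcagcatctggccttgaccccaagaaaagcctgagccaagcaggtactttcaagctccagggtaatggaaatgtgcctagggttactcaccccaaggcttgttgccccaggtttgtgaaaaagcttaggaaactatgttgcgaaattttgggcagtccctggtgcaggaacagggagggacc
On both strands, C1qb had 1 match, beginning at position -30 from the start, C1qc had 1 at -193, and the C3, C3ar1, C5ar1 and Cfp windows had 0. Of all 32851 windows of this length, 23.3% held GAGGAA. C1qa, C4b and Cfb have no window here. None of the 6 windows held the interferon response element (2.98% of all windows did) or TTCNNNGAA, a form bound by STAT factors (7.02%), on either strand. A match or its lack describes these letters only.

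Among the gates large enough to rank, C1q RNA was highest in the microglia gate. Border-associated macrophages (6 cells in Stat4fl/flCD11cCre and 0 in WT), endothelial or stromal cells (3 and 0) and neural glia (1 and 0) were too few to rank as sources of any member. C1qa, the A chain, had 8307 CPM (8276 to 8338) in Stat4fl/flCD11cCre microglia-gate cells and 8890.4 (8847 to 8934) in WT. C1qb, the B chain, had 7539 in Stat4fl/flCD11cCre and 7780.0 in WT, and C1qc, the C chain, 5408 and 5694. Of all C1qa UMIs in gated cells, the microglia gate held 93.4% in Stat4fl/flCD11cCre and 90.5% in WT. Of the C1qa UMIs of all kept cells it held 62.7% and 39.3%, and cells that matched more than 1 list held 32.7% and 56.0%, so shares of gated UMIs below leave out much of the RNA, and more of it in WT. Inflammatory macrophages, monocyte-derived cells marked here by genes such as Arg1, Nos2 and Saa3, came next. Their C1qa was 1139.9 CPM in Stat4fl/flCD11cCre and 907 in WT, their C1qb 1586 and 1347, and their C1qc 737 and 640.0. Classical monocytes, their blood-borne precursors, had 243 and 316 CPM of C1qa, 404 and 456 of C1qb, and 171 and 223 of C1qc. In both libraries the order microglia, macrophages, monocytes held for C1qa, C1qb and C1qc with no overlap of neighbouring intervals.

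**Figure D1:**
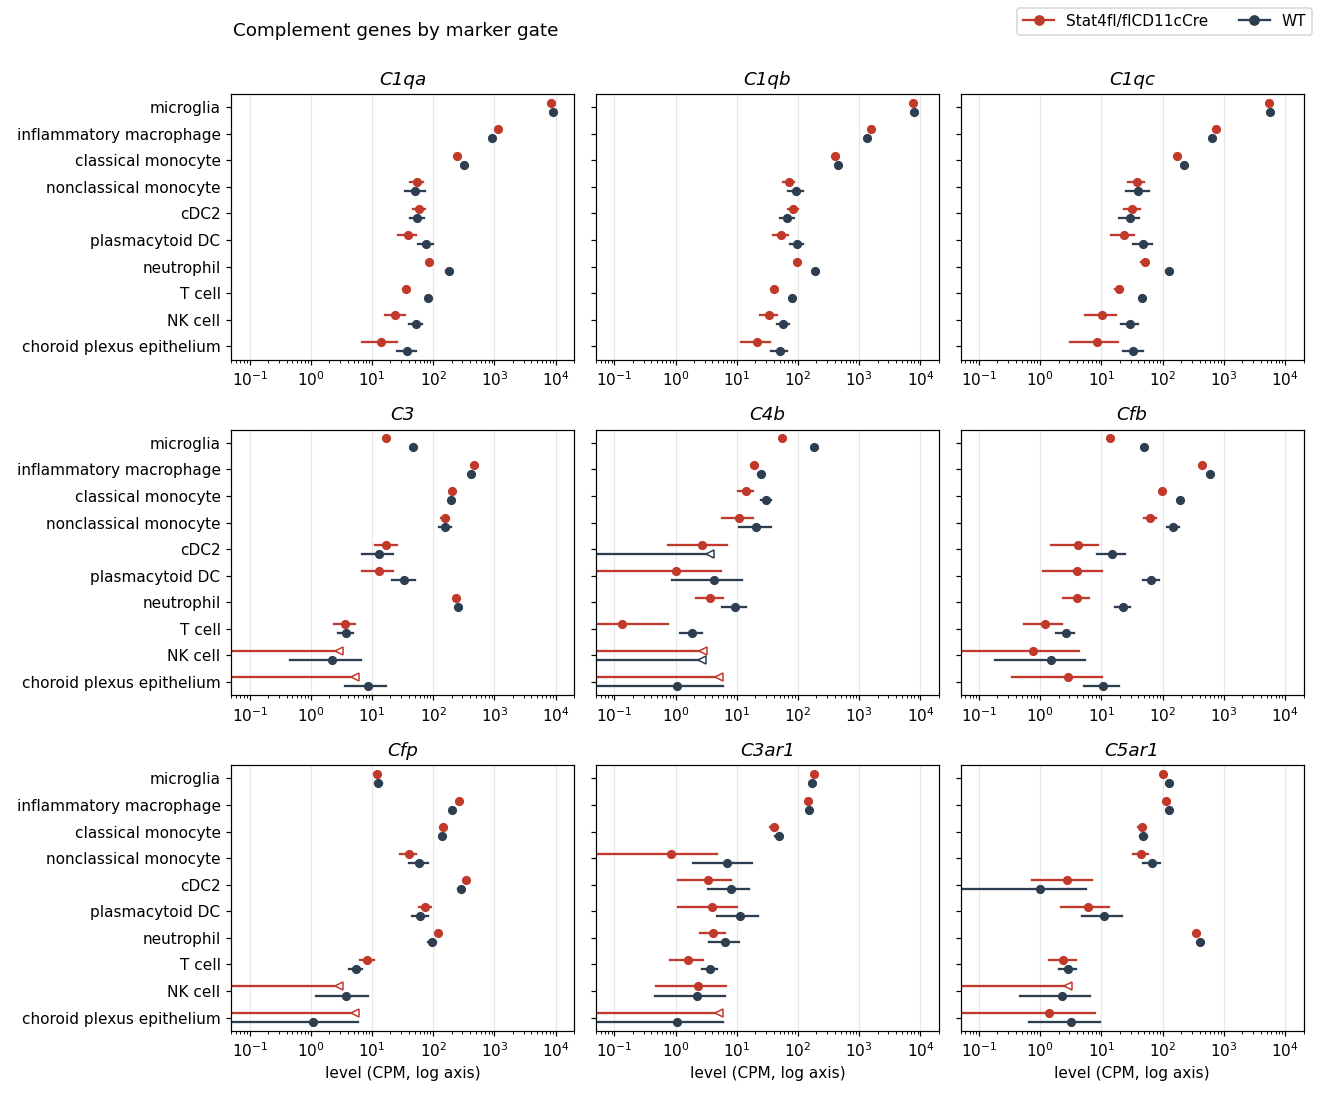
Level of each gene (CPM, log axis) in the 10 gates with 50 or more cells in each library, Stat4fl/flCD11cCre above WT in each row. Bars are 95% Poisson intervals of the UMI sums, and open triangles mark sums of 0 at their upper bound. C1q peaks in microglia, C3 and Cfb in macrophages, Cfp in cDC2 and C5ar1 in neutrophils.

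At the level of single cells, thinned to 2500 UMIs each so that depth is equal, all 3 chains were found together in 99.8% of Stat4fl/flCD11cCre and 99.8% of WT microglia-gate cells. In the macrophage gate all 3 were found in 36.9% of Stat4fl/flCD11cCre cells (34.2 to 39.6) and 30.7% of WT cells (28.5 to 32.9). Independent detection of the chains at their own shares would give 11.4% and 9.49% there, so the 3 chains were found together more often than that. In the monocyte gate all 3 were found in 8.45% of Stat4fl/flCD11cCre cells and 11.3% of WT cells.

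The balance of the chains differed between microglia and the monocyte-derived gates. Each UMI stands for 1 captured transcript whatever its length, but capture can differ between genes, so only the shift of the balance between gates is read. C1qa made up 52.4% (52.3 to 52.6) of C1qa plus C1qb UMIs in Stat4fl/flCD11cCre microglia-gate cells and 53.3% (53.2 to 53.5) in WT. In macrophages it made up 41.8% (41.3 to 42.3) in Stat4fl/flCD11cCre and 40.3% (39.7 to 40.8) in WT. In classical monocytes the share was 37.5% (35.7 to 39.4) and 40.9% (39.2 to 42.7). The C1qa share was thus higher in microglia than in macrophages and classical monocytes of both libraries, with no overlap of the intervals.

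**Figure D2:**
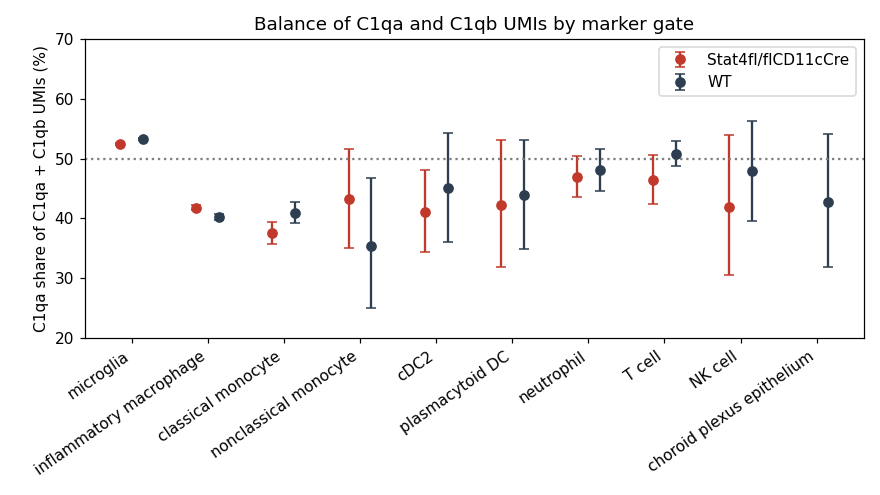
Share of C1qa among C1qa plus C1qb UMIs (%) per gate, Stat4fl/flCD11cCre left of WT, with exact 95% binomial intervals, for gates with enough C1q UMIs (choroid plexus epithelium in WT only). Microglia lie above 50% in both libraries, at 52.4% and 53.3%, and macrophages and classical monocytes lie below it.

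C1q counts were found in every other gate, including cells that should lack it, and most were low. C1qa had 35.8 CPM in Stat4fl/flCD11cCre T cells (31.7 to 40.3) and 83.6 in WT T cells (78.8 to 88.6), and a UMI was found in 6.43% and 10.3% of thinned T cells. Median depths before thinning were 5844.5 and 4978 UMIs in the T cell gate, against 5167 and 4578 in the microglia gate. The C1qa log2 ratio of Stat4fl/flCD11cCre over WT was -1.22 in T cells, -1.13 in NK cells, -1.05 in neutrophils, -0.99 in plasmacytoid DCs and -1.40 in choroid plexus epithelium. In T cells C1qa took 46.5% (42.4 to 50.6) of C1qa plus C1qb in Stat4fl/flCD11cCre and 50.8% (48.7 to 52.9) in WT, above the macrophage share in both. The members past 1.5-fold lower numbered 6 of 9 in T cells, with 1 higher (Cfp), against 3.24% of all genes lower and 2.59% higher. They numbered 3 of 3 in NK cells (3.07% lower, 4.63% higher) and 3 of 3 in choroid plexus epithelium (7.3% lower, 2.19% higher), all of them C1q chains in both gates. Such low counts cannot be told apart from free RNA in the droplets, and are read neither as expression nor as a difference between genotypes. WT B cells stood above classical monocytes, with 448 CPM of C1qa (363 to 548) from 95 UMIs in 70 cells, against 27.7 CPM from 7 UMIs in 33 Stat4fl/flCD11cCre cells, a gate too small to compare. In cDC2 C1qa was 58.5 CPM (46.8 to 72.3) in Stat4fl/flCD11cCre, above the T cell interval there, and 54.8 (41.3 to 71.4) in WT, below the T cell interval there.

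The gene C4b encodes complement C4, whose cleaved form tags surfaces in the classical and lectin pathways. Its RNA had the microglia gate as its main source too. It had 55.4 CPM (52.9 to 58.0) in Stat4fl/flCD11cCre microglia-gate cells and 183 (177 to 190) in WT. The gate held 82.5% of gated C4b UMIs in Stat4fl/flCD11cCre and 85.6% in WT, but 40.5% and 31.4% of those in all kept cells, where cells of more than 1 list held 50.6% and 62.9%. Macrophages had 19.1 and 24.7 CPM, and classical monocytes 14.0 and 30.4. T cells had 1 UMI in Stat4fl/flCD11cCre and 25 in WT, and cDC2 had 4 and 0. The last 500 bases of the C4b transcript match its neighbour C4a at 98% identity over 499 aligned bases, so reads could be split between both genes or dropped. C4a itself counted 12 UMIs in Stat4fl/flCD11cCre and 19 in WT over all kept cells, against 4497 and 10609 of C4b.

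C3, the component on which all pathways converge, had inflammatory macrophages as its main source. Their level was 462 CPM (451 to 473) in Stat4fl/flCD11cCre and 419.9 (409.6 to 430.4) in WT, 70.8% and 72.1% of gated C3 UMIs and 35.5% and 29.9% of those in all kept cells. Neutrophils followed with 236 CPM (222 to 250.5) and 257 (236 to 279.7), then classical monocytes with 205 and 198, and nonclassical monocytes with 157 and 156. In WT the intervals of neutrophils and classical monocytes did not overlap, whereas those of classical monocytes (184 to 212) and nonclassical monocytes (125 to 191) did. The microglia gate had 17.0 CPM of C3 in Stat4fl/flCD11cCre and 46.1 in WT, and T cells 3.58 and 3.77. C3 UMIs were found in 56.0% of Stat4fl/flCD11cCre and 56.2% of WT thinned macrophages, in 30.0% and 36.3% of neutrophils, and in 0.602% and 0.881% of T cells.

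Cfb, the protease of the alternative pathway convertase, had a larger share of its gated UMIs in macrophages than C3 or Cfp. Macrophages had 433 CPM (422 to 443) in Stat4fl/flCD11cCre and 591 (579 to 603) in WT, 86.8% and 82.3% of gated Cfb UMIs and 46.8% and 35% of those in all kept cells. Classical monocytes had 99.3 and 190.4 CPM, nonclassical monocytes 62.0 and 149, and cDC2 4.08 and 14.9. C3 and Cfb were found in the same thinned macrophage in 30.0% of Stat4fl/flCD11cCre cells (27.5 to 32.6) and 34.4% of WT cells (32.2 to 36.7), with 24.9% and 31.7% given by independent detection. In GENCODE, Cfb overlaps the read-through gene Gm20547 on the same strand, which is not used in the tables.

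Cfp, properdin, was highest in cDC2, the conventional dendritic cells that present antigen to CD4 T cells. It had 349 CPM (319 to 380) in Stat4fl/flCD11cCre cDC2 and 286 (254 to 321) in WT, and a UMI in 50% and 49.3% of thinned cells. Macrophages had 259 and 199.6 CPM, classical monocytes 146 and 139, and neutrophils 119.5 and 96.0. As macrophages were far more numerous they still held 61.7% of gated Cfp UMIs in Stat4fl/flCD11cCre and 65.5% in WT, against 8.17% and 6.24% for cDC2. The microglia gate was low, with 11.9 and 12.6 CPM.

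Receptor RNA lay mainly in cells other than dendritic cells. C3ar1, the C3a receptor, had 180.1 CPM (176 to 185) in Stat4fl/flCD11cCre microglia-gate cells and 168 (162 to 174) in WT, then 146 and 150.0 in macrophages, and 41.0 and 48.5 in classical monocytes. Neutrophils had 4.14 and 6.49 CPM of C3ar1, and cDC2 3.40 and 7.97, near the 1.59 and 3.62 of T cells. C5ar1, the main C5a receptor, peaked in neutrophils, which C5a attracts, with 346 CPM (329 to 364) in Stat4fl/flCD11cCre and 414 (387 to 442) in WT. Macrophages had 113 and 128 CPM of C5ar1 and the microglia gate 101 and 125. The macrophage and microglia intervals overlapped in WT but not in Stat4fl/flCD11cCre. A C5ar1 UMI was found in 58.8% and 54.8% of thinned neutrophils, 22.0% and 24.5% of macrophages and 19.3% and 22.2% of microglia-gate cells. C3ar1 and C5ar1 were found together in 7.04% of Stat4fl/flCD11cCre and 7.18% of WT microglia-gate cells, against 6.37% and 6.65% given by independent detection.

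Between genotypes a gene was counted as different past 1.5-fold, as 1 library each allows no test. Under the main settings the microglia gate had the most such members of the 4 main gates, but with 2 or 4 markers per gate classical monocytes had more. In the microglia gate C4b, Cfb and C3 were lower in Stat4fl/flCD11cCre, while C1q and both receptors stayed within 1.5-fold. C4b was 3.31-fold lower (log2 ratio -1.73, -1.81 to -1.64), Cfb 3.53-fold lower (14.0 CPM in Stat4fl/flCD11cCre and 49.3 in WT, log2 -1.82, -1.99 to -1.66), and C3 2.72-fold lower (log2 -1.44, -1.60 to -1.29). With cells grouped by clusters in place of gates the C3 log2 ratio was -0.55, within 1.5-fold. These were 3 of the 9 genes past 1.5-fold lower and 0 past 1.5-fold higher. Of 13095 genes with 50 or more UMIs in the gate, 10.5% were 1.5-fold or more lower and 6.62% higher, with a median log2 ratio of 0.08. The median of the 9 genes was -0.10. C1qa, C1qb and C1qc had log2 ratios of -0.10, -0.05 and -0.07, C3ar1 0.10, C5ar1 -0.30 and Cfp -0.08. The share of thinned microglia-gate cells with a C4b UMI was 7.80% in Stat4fl/flCD11cCre and 27.9% in WT, with a Cfb UMI 1.85% and 7.18%, and with a C3 UMI 2.10% and 6.79%. The 9 macrophage markers summed to 142 CPM in the Stat4fl/flCD11cCre microglia gate and 216 in WT, and the 8 classical monocyte markers to 169 and 319, with none of either list at 0. Among cells with at most 1 marker of any other list, C3 was 5.27 CPM in Stat4fl/flCD11cCre and 23.9 in WT, and Cfb 8.02 and 40.6, while C4b was 41.8 and 162.

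**Figure D3:**
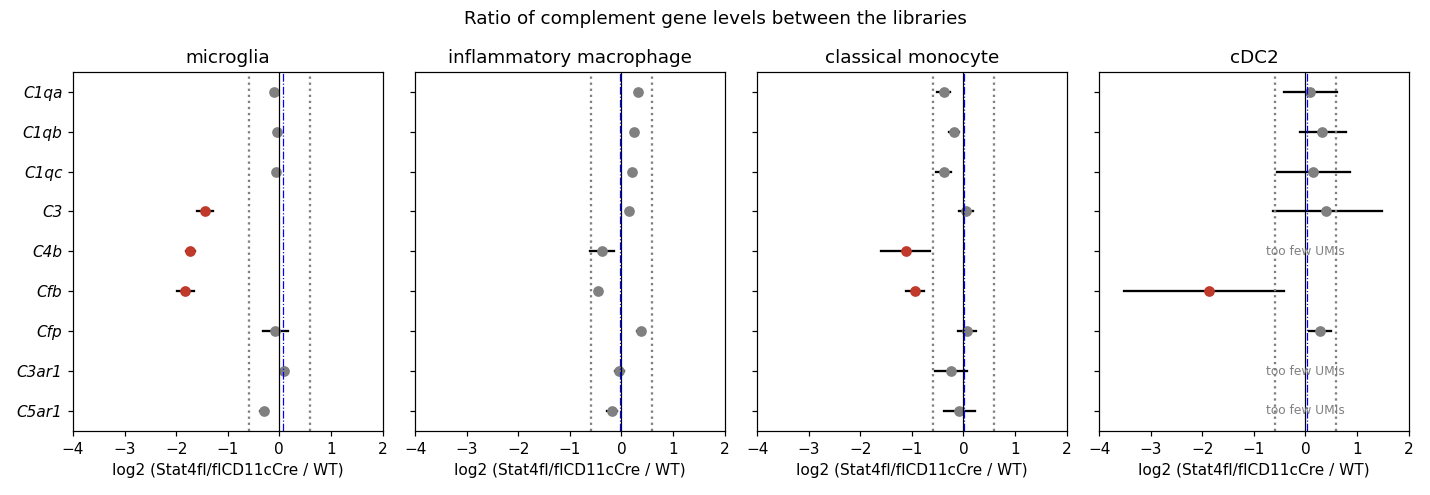
Log2 ratio of Stat4fl/flCD11cCre over WT for each gene in the 4 main gates, with exact 95% counting intervals. Red points lie past 1.5-fold (dotted lines), the blue line is the median of all genes, and C3, C4b and Cfb in the microglia gate stand at -1.44, -1.73 and -1.82.

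The microglia gates of the libraries lay largely in different clusters. In unsupervised clusters built without the 9 genes, cluster 7 (led by Dlc1, Csmd3 and Gpr34) held 54.4% of Stat4fl/flCD11cCre and 14.9% of WT microglia-gate cells, and cluster 8 (led by Ltc4s, Gpr34 and Ecscr) 18.1% and 15.1%. Cluster 9, led by Ccl12, Gm4951 and C4b, held 13.2% and 49.5%. C4b was lower in Stat4fl/flCD11cCre within each of them, but unequally. It had 14.9 CPM in Stat4fl/flCD11cCre and 62.7 in WT in cluster 7 (log2 -2.07, -2.38 to -1.76), 20.2 and 99.0 in cluster 8 (log2 -2.29, -2.73 to -1.87), and 189.8 and 237 in cluster 9 (log2 -0.32, -0.44 to -0.21). Cfb and C3 were at or under 4 CPM in clusters 7 and 8 of both libraries. In cluster 9 Cfb had 35.2 CPM in Stat4fl/flCD11cCre and 55.3 in WT (log2 -0.65, -0.91 to -0.40), and C3 had 19.3 and 42.0 (log2 -1.12, -1.46 to -0.79). C1qa in cluster 9 was 10618 CPM and 10009 (log2 0.09).

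These 3 clusters held 85.7% and 79.5% of the microglia-gate cells but only 24.2% and 44.6% of the gate's C3 UMIs. A deep cluster with markers of both microglia and macrophages held 1.70% of Stat4fl/flCD11cCre and 3.18% of WT microglia-gate cells and 34.6% and 18.0% of their C3 UMIs, and 51.9% and 40.2% of their Cfp UMIs. That cluster had 922 cells in Stat4fl/flCD11cCre and 1535 in WT, with median depths of 20541.5 and 16836 UMIs, and 729 and 399 CPM of P2ry12 beside 734 and 581 of Arg1. The part of mixed cells in the whole-gate values was not tested beyond leaving them out. In the 3 clusters alone C3 was 5.42 CPM in Stat4fl/flCD11cCre and 30.5 in WT (log2 -2.49), Cfb 8.56 and 39.8 (log2 -2.22), C4b 50.1 and 190.1 (log2 -1.92), and Cfp 1.85 and 2.28.

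Levels of C3, C4b and Cfb went along with MHC class II RNA. Thinned microglia-gate cells were split by their UMIs of H2-Aa, H2-Ab1 and H2-Eb1, genes of the antigen-presenting MHC class II molecules. Of Stat4fl/flCD11cCre cells 73.0% had 0, 17.2% had 1 to 4 and 9.80% had 5 or more, whereas in WT the shares were 17.2%, 25.4% and 57.4%. The cells had been sorted on surface MHC class II and CD11c, and how far the sort shaped these shares was not tested. C4b was 16.5, 75.4 and 182 CPM in the 3 bins in Stat4fl/flCD11cCre, and 70.8, 123 and 218 in WT, so it was higher at higher MHC class II in both. Cfb was 2.48, 12.9 and 58.0 CPM in Stat4fl/flCD11cCre and 5.76, 22.8 and 50.8 in WT, and C3 was 5.53, 10.5 and 50.4 and 14.8, 27.8 and 45.3. Within the bin of 5 or more the log2 ratio was -0.26 (-0.48 to -0.04) for C4b, 0.19 (-0.22 to 0.59) for Cfb and 0.15 (-0.29 to 0.58) for C3. Within the bin of 0 it was -2.10 (-2.50 to -1.70) for C4b and -1.42 (-2.23 to -0.55) for C3, and 22 and 7 UMIs of Cfb gave -1.21 (-2.49 to 0.26). C1qa was 8464, 9194 and 9926 CPM in Stat4fl/flCD11cCre and 8775, 9016 and 9651 in WT. These bins include cells of the deep cluster with microglia and macrophage markers. Within clusters 7, 8 and 9 alone, C4b was 14.7, 67.2 and 232 CPM in the 3 bins in Stat4fl/flCD11cCre and 66.2, 125 and 229.5 in WT, so it again was higher at higher MHC class II. In the bin of 5 or more (309 Stat4fl/flCD11cCre and 1227 WT cells) the log2 ratio there was 0.01 (-0.23 to 0.25) for C4b, -0.12 (-0.77 to 0.48) for Cfb and -0.41 (-1.12 to 0.25) for C3. Each sign was turned against the whole gate, but all of these intervals held 0, so the turn is not read as a difference. In the bin of 0 within these clusters the log2 ratio was -2.17 (-2.62 to -1.72) for C4b. There 11 Stat4fl/flCD11cCre and 3 WT UMIs of C3 gave -1.04 (-2.96 to 1.45), and 18 and 6 of Cfb gave -1.33 (-2.72 to 0.30). Both of these intervals held 0, so the C3 difference of the whole gate in this bin was not seen clearly within these clusters. Cells with 4 or 5 MHC class II UMIs, next to the upper bound, numbered 121 in Stat4fl/flCD11cCre and 279 in WT. Cfp in the bin of 5 or more was 38.7 CPM in Stat4fl/flCD11cCre and 10.8 in WT, from 46 and 44 UMIs, and 2.59 and 1.96 within the 3 clusters, from 2 and 6 UMIs.

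**Figure D4:**
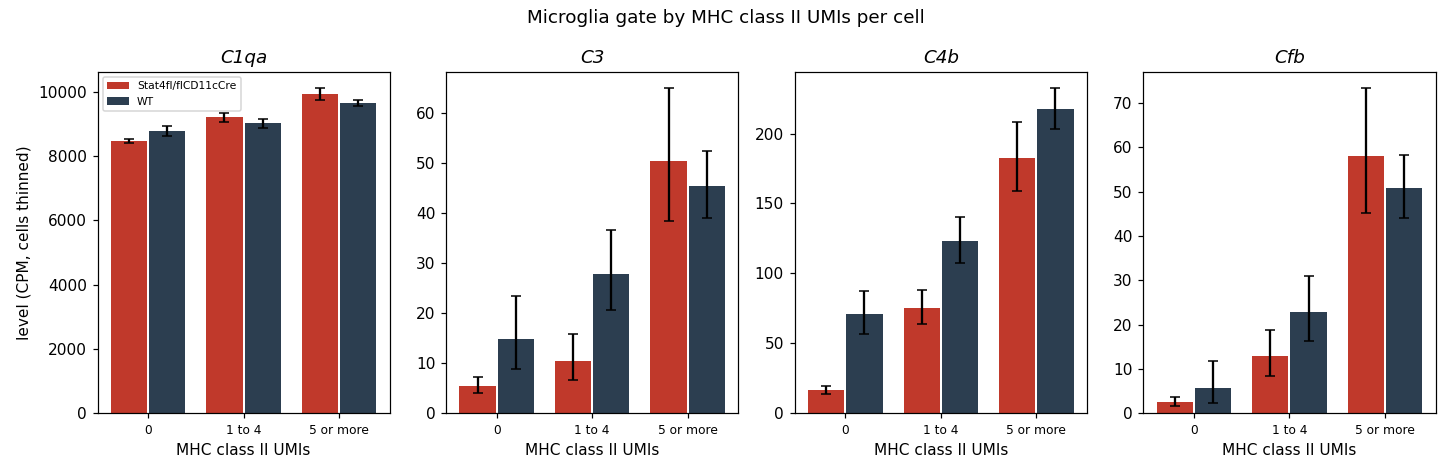
Level (CPM, bars from 0, 95% Poisson intervals) of C1qa, C3, C4b and Cfb in microglia-gate cells thinned to 2500 UMIs, by MHC class II UMIs per cell, Stat4fl/flCD11cCre left of WT. C3, C4b and Cfb are highest at 5 or more UMIs in both libraries, where C4b stands at 182 and 218 CPM.

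In the macrophage gate none of the 9 genes was past 1.5-fold, with a background of 3.77% of 10804 genes lower and 1.74% higher. Cfb had the most negative log2 ratio, at -0.45 (-0.50 to -0.40), and Cfp the most positive, at 0.37 (0.31 to 0.44). C1qa, C1qb and C1qc were 0.33, 0.24 and 0.20, C3 0.14, C4b -0.37, C5ar1 -0.18 and C3ar1 -0.04. Thinned macrophages were also split by Nos2 and Arg1, which encode enzymes that compete for arginine and are themselves among the markers of the gate. Cfb and C3 were highest in Nos2-positive cells of both libraries. Cfb was 1339 CPM in Nos2-positive Stat4fl/flCD11cCre cells (1194 to 1497) and 1255 in WT (1164 to 1351), 426 and 564 in cells with Arg1 but no Nos2, and 339 and 530.2 in cells with neither. C3 was 904 and 604 CPM in Nos2-positive cells, 536 and 416 in Arg1-positive cells, and 325 and 409.8 in cells with neither. Nos2-positive cells made up 7.16% of the gate in Stat4fl/flCD11cCre and 13.2% in WT. Within them the log2 ratio was 0.09 (-0.10 to 0.29) for Cfb and 0.58 (0.33 to 0.83) for C3. In cells with Arg1 but no Nos2 it was -0.40 (-0.55 to -0.26) for Cfb and 0.36 (0.21 to 0.51) for C3. In cells with neither it was -0.65 (-0.80 to -0.49) for Cfb and -0.33 (-0.49 to -0.17) for C3. The C3 ratio was thus positive in Nos2-positive and Arg1-positive cells and negative in cells with neither. In WT the C3 intervals of Arg1-positive cells (385.8 to 448.8) and cells with neither (382.5 to 438.4) overlapped.

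**Figure D5:**
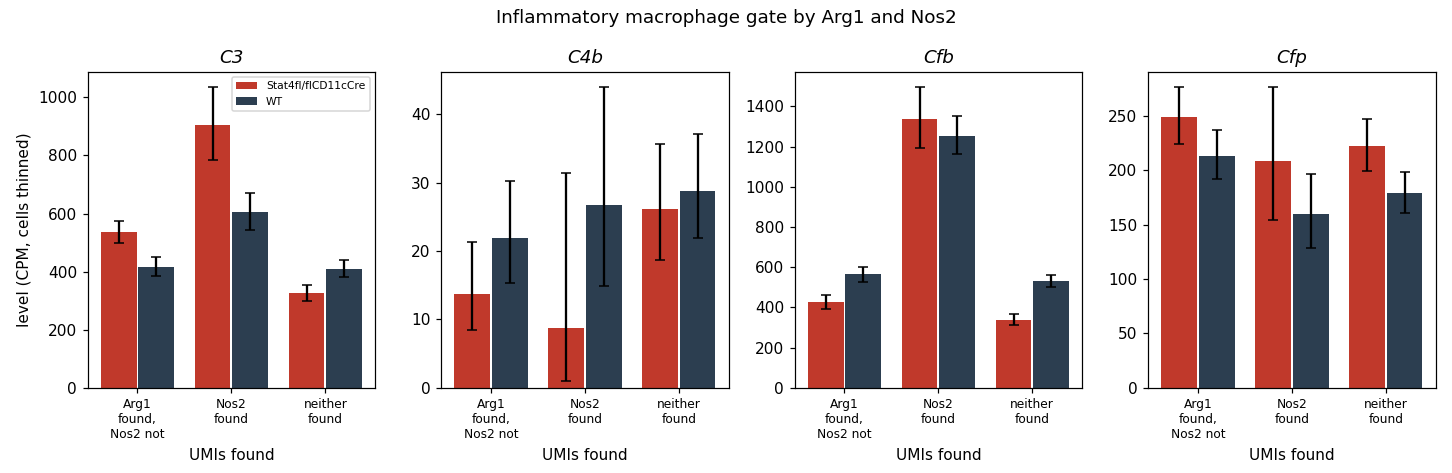
Level (CPM, bars from 0, 95% Poisson intervals) of C3, C4b, Cfb and Cfp in macrophage-gate cells thinned to 2500 UMIs, by detection of Arg1 and Nos2, Stat4fl/flCD11cCre left of WT. Cfb is highest in Nos2-positive cells, at 1339 and 1255 CPM.

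In classical monocytes 2 of 9 genes were past 1.5-fold lower, C4b (57 and 122 UMIs, log2 -1.12, -1.60 to -0.65) and Cfb (99.3 and 190.4 CPM, log2 -0.94, -1.12 to -0.76), against 6.01% of 8420 genes lower and 2.91% higher. C3 stood at 0.05 (-0.09 to 0.19) and C1qa at -0.38. The gate was held by different clusters: cluster 4, led by Vcan, held 43.2% of it in Stat4fl/flCD11cCre and 19.5% in WT, and cluster 3, led by AA467197, Cxcl9 and Slc7a2 and with Cfb among its 10 leading genes, 28.2% and 41.6%. With cells grouped by clusters instead, the C4b log2 ratio was 0.0058. In nonclassical monocytes 3 of 8 genes were past 1.5-fold lower and 0 higher, with a background of 4.94% lower and 7.13% higher. Of these Cfb had 62.0 and 149 CPM (log2 -1.26, -1.73 to -0.79), with 27 of the 74 Stat4fl/flCD11cCre UMIs from 1 cell, and its log2 ratio was -0.33 among cells with at most 1 marker of other lists. The intervals of C4b (-2.19 to 0.32) and C5ar1 (-1.24 to 0.04) held 0.

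In cDC2, dendritic cells that express CD11c, 6 of the 9 genes had enough UMIs to compare. Cfp, the main one, had a log2 ratio of 0.29 (0.07 to 0.50), and 1 gene, Cfb, was past 1.5-fold lower on 6 and 15 UMIs (log2 -1.87, -3.53 to -0.42), with a background of 4.14% of 5336 genes lower and 5.15% higher. A Cfb UMI was found in 3 of 142 Stat4fl/flCD11cCre cDC2 (0.438% to 6.05%) and 11 of 138 WT cDC2 (4.05% to 13.8%), intervals that overlap, and with cells thinned to equal depth 0 and 4 cells had one. C3 had 25 and 13 UMIs. In plasmacytoid DCs 5 of 6 genes were past 1.5-fold lower (background 3.95% lower, 6.47% higher), among them the C1q chains at the low levels above, and Cfb had 4 UMIs in Stat4fl/flCD11cCre and 47 in WT, 39 of them from 1 WT cell. In neutrophils 6 of 9 genes were past 1.5-fold lower and 0 higher, against 11% of all genes lower and 2.02% higher, and all 6 were C1q chains or genes under 25 CPM there. C3 (log2 -0.12), Cfp (0.32) and C5ar1 (-0.26) stayed within 1.5-fold there, and Cfb had 18 and 48 UMIs.

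Among 37 other complement genes, 14 had 50 or more UMIs in the microglia gate, of which 4 were lower by 1.5-fold or more, against 10.5% of all genes. Those lower were C2, the partner of cleaved C4 in the convertase (3.04 CPM in Stat4fl/flCD11cCre and 7.48 in WT, log2 -1.30), and the C1 protease C1ra (2.10 and 4.95 CPM, log2 -1.24). The others lower were the C1 inhibitor Serping1 (0.760 and 5.50 CPM, log2 -2.86) and the CR4 chain Itgax, which encodes CD11c (13.3 and 27.5 CPM, log2 -1.05). In the macrophage gate 1 of 12 was lower (3.77% of all genes), C2 with 21 and 38 UMIs. In classical monocytes it was 1 of 6 (6.01% of all genes), Itgax with 39 and 85 UMIs. In cDC2 0 of 5 were past 1.5-fold, against 4.14% of all genes lower and 5.15% higher. Counts of 1 or 0 in such short lists are not read as different from these shares.

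Some other genes of the pathway were highest in the same gate of both libraries. Itgam, the CR3 chain CD11b, was highest in microglia (667 and 582 CPM), as were C5ar2, the second C5a receptor (45.7 and 36.6), and the lectin pathway protease Masp1 (8.45 and 11.2). C1ra (15.3 and 17.7) and C1s1, the other C1 protease (4.68 and 6.03), were highest in macrophages, and Cd93, once described as a C1q receptor, in classical monocytes (69.6 and 51.5). Itgb2, the beta chain of CR3 and CR4, was highest in nonclassical monocytes (519 and 547), and the ficolin Fcnb in neutrophils (89.9 and 107). For 2 regulators the lead was small: Cd46 had 15.9 and 14.4 CPM in neutrophils beside 14.3 and 12.04 in microglia, and Cr1l 114 and 95.5 in NK cells beside 109 and 90.9 in microglia. The regulators Clu (1383 and 1451), Cd59a (191 and 184), Cd55 (38.2 and 33.0, beside 30.3 and 24.6 in neutrophils) and Vtn (36.8 and 38.3) were highest in choroid plexus epithelium. These, and Itgax in nonclassical monocytes (272 CPM in Stat4fl/flCD11cCre and 69.9 in WT, log2 1.96, 1.48 to 2.47), were picked after their values were seen. Of the terminal components C8g had 75 and 79 UMIs over all kept cells, Hc (C5) 16 and 25, C6 16 and 1, C9 8 and 11, C8a 4 and 2, C7 0 and 1, and C8b 0 and 0. The CD11b antibody tag, which reads surface protein, had its highest median in macrophages (1144 counts per cell in Stat4fl/flCD11cCre and 1073 in WT), against 381 and 327 in microglia and 22 and 30 in T cells. Itgam RNA was highest in microglia, but it is scaled to gene UMIs and the tag is a count per cell. Median depth was 10390.5 and 7846.5 gene UMIs in macrophages and 5167 and 4578 in microglia, so the 2 rankings are in unlike units.

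Genes whose levels followed each complement gene most closely were ranked by Pearson's r of log2(CPM + 10) over 20 points, 10 gates in each library, which share libraries and depth. The mean of the C1q chains was nearest to Trem2 (0.98), Hebp1 (0.98) and Stab1 (0.97), and C3ar1 to Stab1 (0.97), Gab1 (0.97) and Cacna1d (0.96). Stab1 is itself on the border-associated macrophage marker list used in gating, so its levels across gates are partly set by the gating. C3 was nearest to Pla2g7 (0.97), Clec4e (0.97) and Pstpip2 (0.96), and C5ar1 to Hk3 (0.97), Csf3r (0.96) and Hcar2 (0.94). Cfb was nearest to the scavenger receptor Msr1 (0.95), the clotting factor F10 (0.92) and Gpnmb (0.90), C4b to Gm17268 (0.94), Pla2g15 (0.94) and Adap2os (0.94), and Cfp to Timm10b (0.95), Tiparp (0.94) and Slfn5 (0.92).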

How the data were processed

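Sorted cells were run with a 10x Genomics 3' kit, as the labels' protocols state. The authors deposited raw UMI counts, 1 for each gene in each barcode. Their header names Cell Ranger 7.0.0. Build mm10 and the tools bcl2fastq, STAR, Seurat and R 4.3.0 stand without a role in the submitters' processing notes. The matrices also hold 5 antibody tags, left out of gene totals. Barcodes with 500 or more genes, 1000 or more gene UMIs and under 10% mitochondrial UMIs were kept.

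Cells were gated on marker lists. The classical monocyte list did not compete with macrophage, DC, granulocyte and nonclassical monocyte lists, a rule set after the data were seen. Cells at exactly 3 markers numbered 23 and 56 in the microglia gate and 198 and 356 in the macrophage gate, in Stat4fl/flCD11cCre and WT. Cells matching more than 1 list were left out, which was the treatment of doublets. Removing the 10% highest Scrublet scores was an alternative.

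UMIs were summed per gate and library and scaled to 1000000 gene UMIs (CPM). Levels carry exact Poisson, ratios exact conditional binomial and shares exact Clopper-Pearson 95% intervals (scipy 1.17.1), for counting error only. As each genotype has 1 library, samples could not be tested against each other, and 1.5-fold marks a difference. Genes entered ratios with 20 (members) or 50 UMIs over both libraries, in gates with 50 or more cells each. Clusters used scanpy 1.11.5 (2000 variable genes without the members, 30 components, 15 neighbours, resolution 1). Members and lists were chosen with earlier results of these data known, and the Arg1 and Nos2 split and the within-cluster values after their values were seen. Named genes are the 9 members, other complement genes past 1.5-fold in a main gate with 50 or more UMIs there or highest in the same gate of both libraries (of gates with 50 or more cells in each), and the 3 nearest by r. Some of these at very low levels are not given, and 1 other result on them is not reported here.

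On simulated data drawn from the microglia gate (13073 genes), 97.9% of genes set 2-fold lower and 100% of those set 2-fold higher were recovered past 1.5-fold, and for unchanged genes 95.4% of the intervals covered the simulated ratio. In the classical monocyte gate (8367 genes) 89.8% and 100% were recovered. For genes set 2-fold lower, intervals covered the simulated ratio in 93.8% of cases in the microglia gate and 87.8% in the classical monocyte gate. Counts were drawn with counting error only, so coverage near 95% follows from the set-up. Differences between mice or libraries and mixed cells were not simulated.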

Additional observations from a re-analysis of the deposited data

How the results depend on the processing

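No paired analysis was possible because each genotype has 1 library. Ratios of the members were recomputed with 2 or 4 markers per gate, with the highest Scrublet scores removed, under a stricter cell filter, with 2 other scalings, in thinned cells, by clusters in place of gates, and, chosen after seeing the data, among cells with at most 1 marker of other lists and in the 3 largest clusters of the microglia gate. In the microglia gate the log2 ratio ranged over these 10 alternatives between -1.97 and -1.31 for C4b, -2.34 and -1.21 for Cfb and -2.49 and -0.55 for C3, whose -0.55 by clusters is within 1.5-fold. That grouping counts the deep cluster with markers of both microglia and macrophages as microglia. Cfb in nonclassical monocytes (-1.26) was -0.33, within 1.5-fold, among cells with at most 1 marker of other lists. By clusters the ratio also reversed for C4b in classical monocytes (0.0058) and for C1qa (0.14), C1qb (0.10) and C1qc (0.20) in NK cells. For classical monocytes the number of members 1.5-fold lower, 2 of 9, was 6 with 2 markers, 4 with 4 markers, 1 by clusters and 1 at 2-fold. With 2 or 4 markers it was thus above the number in the microglia gate. For cDC2 the number lower, 1, was 2 among cells with at most 1 marker of other lists. In thinned cells it was 0 only because Cfb, with 0 UMIs in Stat4fl/flCD11cCre and 4 in WT, gave no finite ratio and was not counted. The number higher in cDC2, 0, was 1 with 4 markers and 2 in thinned cells. Within the 3 largest microglia clusters, the ratios at 5 or more MHC class II UMIs were 0.01 for C4b, -0.12 for Cfb and -0.41 for C3, against -0.26, 0.19 and 0.15 in the whole gate. The intervals within the clusters all held 0. The member counts of the microglia and macrophage gates stayed within 1.5 times in every alternative run. Depth limits cDC2 most among the 4 main gates: 3 counts, the limit that a count of 0 allows, stand for 2.04 CPM in Stat4fl/flCD11cCre and 2.99 in WT.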
